A study of Homo sapiens with 6 samples.

Results

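Cross-link positions of the translation initiation factor eIF4B that were seen repeatedly in the B-cell line GM01953, and that had no counterpart in the lymphoma line DoHH-2, are described here. A position was taken when it held 3 or more cDNA counts in GM01953 and when the DoHH-2 table listed no position, of any count, within 50 nt on the same chromosome and strand. Of the 78474 positions in GM01953, 15165 held 3 or more counts, and 3106 of these (20.5%) had no DoHH-2 position within 50 nt. The remaining 12059 repeated positions had one and serve as the background throughout. The positions were thus chosen by the counts in both tables, and their number is a description that carries no test.

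The study immunoprecipitated eIF4B from cells irradiated with UVC at 150 mJ/cm2 and sequenced the cross-linked RNA by iCLIP. DoHH-2 derives from a diffuse large B-cell lymphoma (DLBCL), while GM01953 is a B-cell line without the disease that served as the control, and the labels name no treatment of either. The lines are not isogenic, so differences of genotype and of eIF4B level between them cannot be told apart. By the labels there were 4 DoHH-2 and 2 GM01953 replicates, but their counts were deposited pooled, 1 table per line, so that no replicate error and no test between the lines could be had.

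eIF4B is an RNA-binding cofactor of the helicase eIF4A and promotes unwinding of mRNA 5′ UTRs during recruitment of the small ribosomal subunit. In iCLIP, reverse transcription stops at the amino acids that remain on a cross-linked nucleotide, and the cDNA end therefore marks the nucleotide beside the cross-link. Each count is 1 cDNA molecule after removal of duplicates. A gene's counts rise with the level of its RNA as well as with the binding, and RNA levels were not analysed here, so fewer cells with an RNA, less of it per cell and less eIF4B on it cannot be told apart.

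The DoHH-2 table was 12.2 times deeper, with 2033156 cDNA counts at 1179243 positions against 167197 counts in GM01953. Of the B-cell identity genes fixed for the check, 15 of 16 had counts in GM01953, among them CD79A (43 counts) and CD74 (359). The erythroid and platelet, myeloid, and fibroblast and epithelial marker lists had 0 counts there. Markers of T and NK cells held 45 counts in GM01953 and 5 in DoHH-2.

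The sequences around the highest positions are shown first, because they fall into recognisable kinds. Each is 30 nt of the GRCh38 reference, 5′ to 3′ on the strand of the RNA, and the capital marks the deposited cross-link position. The first set is drawn from the highest positions. In 3 of them a run of A follows within the letters shown, and 1 lies in a tRNA gene.
CD40 (chr20:46126169-46126198, + strand, 50 counts): gatgctgctGaacatctgcaatgcatagga
no gene assigned (chr7:71834330-71834359, + strand, 42 counts): ggtaattacGatccaccctaaaaaaaaaaa
no gene assigned (chr18:60870631-60870660, + strand, 41 counts): tgggacaggGtcaagtccaaaaaaaaaaaa
tRNA gene TRT-CGT1-1 (chr6:28489014-28489043, - strand, 37 counts): agcgcctgtCtcgtaaacaggagatcctgg
MCF2L intron (chr13:112922512-112922541, + strand, 36 counts): gaaagcattCacaacacataaaaaaaaaaa
LINC00158 intron (chr21:25404236-25404265, - strand, 30 counts): atatgttccTtctataccaagttttttttt
no gene assigned (chr6:39185981-39186010, - strand, 19 counts): tcttttctgTtttaaactcctcaggggctc

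The second set shows the highest position of 5 RNAs whose repeated positions mostly lacked a DoHH-2 counterpart. They lie in exons of mRNAs, in an intron of CD44 and in a small non-coding RNA. These 5 were chosen for display after their values were seen. The 31 nt after the FSCN1 position occur at 2 places in the genome, and those after the others at 1.
CD44 intron (chr11:35204171-35204200, + strand, 8 counts): gttttctcaGacagggtatgtgaagccatt
MS4A1 CDS (chr11:60462379-60462408, + strand, 8 counts): caacacccaGaaattcagtaaatgggactt
FSCN1 5′ UTR (chr7:5592927-5592956, + strand, 7 counts): tactgccacCatgaccgccaacggcacagc
CCND2 5′ UTR (chr12:4273861-4273890, + strand, 6 counts): cctcgcctcCcttctgctccaccttctctc
VTRNA2-1 (chr5:136080532-136080561, - strand, 12 counts): cggactttcTatctgtccatctctgtgctg

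The third set gives the 4 highest positions in sequence that occurs more than once in the genome, and they held 12 to 18 counts.
LENG1 intron (chr19:54157965-54157994, - strand, 3 copies): ctcacgcctGtaatcccaccaccttgggag
tRNA gene TRC-GCA17-1 (chr7:149691197-149691226, - strand, 9 copies): ttgactgcaGatcaagaggtccccggttca
no gene assigned (chr13:80084503-80084532, - strand, 2 copies): ttatgagtcAgccacttaaaaaaaaaaaaa
DPP10-AS1 intron (chr2:115159218-115159247, - strand, 2 copies): tgacctagtTatccgcccaccccggcctcc

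The positions without a DoHH-2 counterpart were mostly of low count. Their median was 4 cDNAs, with quartiles of 3 and 5, and 1438 of them (46.3%) sat at the minimum of 3. Of all, 156 (5.02%) held 10 or more counts, against 9.98% of the repeated positions with a counterpart. Together they held 14402 counts, 16.3% of the counts at repeated positions and 8.61% of all GM01953 counts.

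The share without a counterpart fell as the count rose. It was 29.5% at a single count, 23.9% at 2, 22.7% at 3, 20.6% at 4, 19.97% at 5 to 9 and 15.3% at 10 to 19 counts. At 20 or more counts it was 1.80%, which is 7 of 388 positions. Over GM01953 positions of any count the share was 26.7%.

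The distance to the nearest DoHH-2 position had a median of 775 nt, with quartiles of 156 and 8597.75 nt and a maximum of 590380 nt. Within 1000 nt on the same strand, 1443 positions (46.5%, 95% interval 44.7 to 48.2) had no DoHH-2 count at all, and 235 (7.57%) had 21 or more DoHH-2 counts at the permitted distances. For 737 positions the nearest DoHH-2 position lay over 10000 nt away and for 162 over 100000 nt away. At the edge of the rule, 136 positions had their nearest DoHH-2 position 51 to 60 nt away and 159 repeated positions just outside had it 41 to 50 nt away, both with a median of 4 counts. At the lower edge in count, 3731 positions with 2 counts also lacked a counterpart, against the 1438 with 3.

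Introns held the largest share of these positions. Of the 3106, 1418 (45.7%, 95% Wilson interval 43.9 to 47.4) lay in introns, against 754 of the 12059 with a counterpart (6.25%, 5.83 to 6.70). Exons of coding transcripts held 993 (32.0%, 30.4 to 33.6), made up of 544 in the CDS, 279 in the 3′ UTR and 170 in the 5′ UTR, against 81.6% of those with a counterpart. Non-coding exons held 247 (7.95%). A further 188 (6.05%) lay antisense to a gene and 260 (8.37%) overlapped no gene on either strand. Read the other way, 65.3% of all repeated intron positions lacked a DoHH-2 counterpart, against 9.17% of those in exons of coding transcripts and the 20.5% over all. Regions come from GENCODE release 44, exons before introns, and the intervals cover counting error only.

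Most of the intron positions lay away from exon ends. Their median distance to the nearest exon was 915.5 nt, with quartiles of 268.5 and 3528.25 nt. Only 108 of the 1418 (7.62%) lay within 50 nt of an exon and 684 (48.2%) lay over 1000 nt away. The median distance of the 754 intron positions with a counterpart was 832 nt.

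The genes around the positions differed in how much DoHH-2 signal they had elsewhere. As the deposited tables assign genes, 1773 positions (57.1%) lay in genes with over 20 DoHH-2 counts, 551 (17.7%) in genes with 1 to 20 and 264 (8.50%) in genes with 0 DoHH-2 counts, while 518 (16.7%) had no assigned gene. In genes with over 20 DoHH-2 counts, 61.3% of the positions were intronic, 30.9% lay in coding exons, and the nearest DoHH-2 position was a median of 270 nt away. In genes with 0 DoHH-2 counts, 28.8% were intronic, 55.7% lay in coding exons, and the median distance was 45657.5 nt.

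Introns and coding exons also differed within genes of 21 to 1000 DoHH-2 counts. These bins use the counts of the whole gene, so the density of DoHH-2 positions in introns and in exons was not matched. There, 1063 of 1677 repeated intron positions (63.4%) lacked a counterpart, against 546 of 6802 in coding exons (8.03%). In genes of over 1000 DoHH-2 counts it was 23 of 66 intron positions (34.8%) and 1 of 2965 coding-exon positions. In genes of 1 to 20 DoHH-2 counts, where few DoHH-2 positions exist, it was 77.7% of intron positions and 65.6% of coding-exon positions.

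The positions stood apart from other GM01953 signal. No other GM01953 position, of any count, lay within 50 nt on the strand for 2532 of the 3106 (81.5%, 80.1 to 82.8), against 34.8% (34.0 to 35.7) of those with a DoHH-2 counterpart. The median distance to the nearest other GM01953 position was 2789.5 nt, against 8 nt. A neighbour 1 nt away was present for 6.31% and 30.6%, respectively. For 63.5% no other GM01953 count lay within 1000 nt, against 17.96%. Chained within 50 nt, the 3106 positions formed 3046 clusters, of which 3008 were single positions and the largest held 6.

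Isolation also differed by region. In introns, 87.6% were isolated by 50 nt, against 67.9% of the intron positions with a counterpart. In the CDS it was 72.6% against 36.5%, in the 3′ UTR 73.8% against 33.5% and in the 5′ UTR 55.9% against 20.99%. The isolated share was thus higher without a counterpart in every region listed. The groups were separated by the presence of a DoHH-2 position within 50 nt. The local density of cross-link positions was not matched, within regions or over all. The difference in isolation is therefore a description of the groups that the rule makes. In genes with 0 DoHH-2 counts 67.8% were isolated, and in genes with over 20 it was 86.1%.

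**Figure D1:**
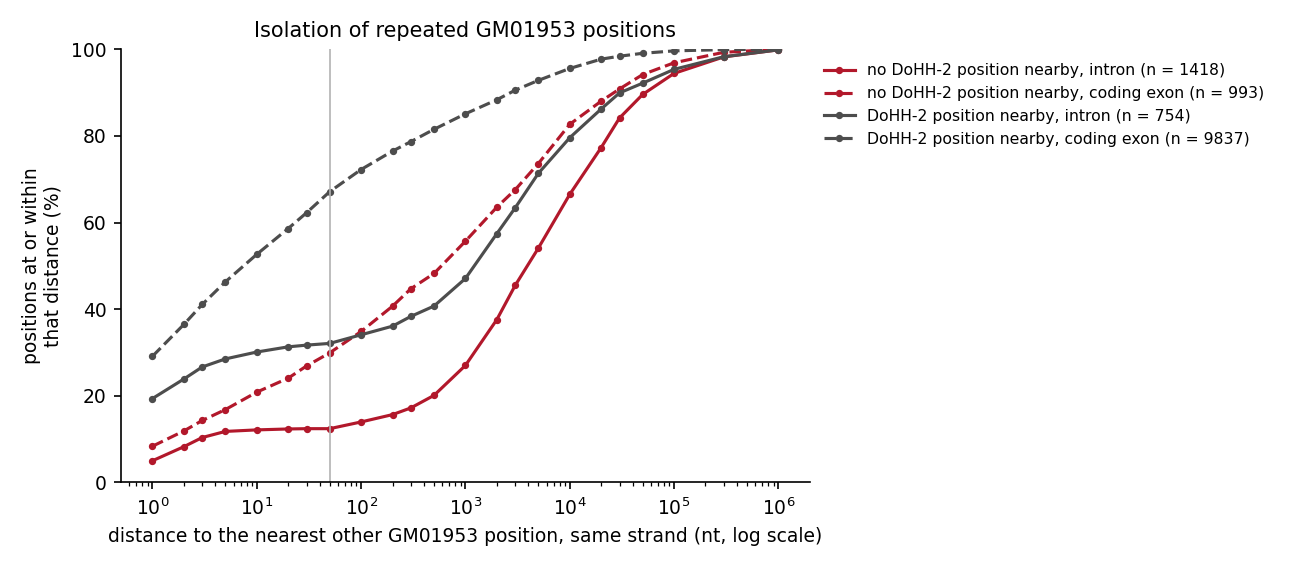
Cumulative share of repeated GM01953 positions (percent) by distance to the nearest other GM01953 position on the strand (nt, log scale), for introns (solid) and coding exons (dashed), without (red) and with (grey) a DoHH-2 position within 50 nt. At the vertical line at 50 nt, 12.4% of the 1418 intron positions without a counterpart had a neighbour, against 32.1% of the 754 with one. In coding exons it was 29.9% of 993 against 67.1% of 9837.

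Nearly all of the positions lay in sequence that occurs once in the genome. The 31 nt that follow the position matched no second place on either strand of the primary assembly for 2974 of the 3106 (95.8%, 94.98 to 96.4), against 91.7% (91.2 to 92.2) of those with a counterpart. A further 69 had 2 to 5 copies, 35 had 6 to 100 and 28 (0.901%) had over 100, against 302 (2.504%) over 100 copies among those with a counterpart. The highest copy number was 9596, against 77087. In introns 96.8% were single-copy, antisense to genes 88.3% and outside genes 90.0%, against 81.96%, 47.98% and 46.5% with a counterpart. Of the 28 with over 100 copies, 15 were followed by a run of A and none lay in a coding exon.

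Some positions lay just before genomic runs of A. Within the 31 nt after the position, 164 of the 3106 (5.28%, 4.55 to 6.12) had 10 or more A in a row, against 503 of the 12059 (4.17%, 3.83 to 4.54). The run began a median of 9 nt after the position. Of the 164, 60 were antisense to a gene, 54 outside genes, 42 in introns and 4 in coding exons, and 153 (93.3%) were isolated, against 20.5% of the 503. For 91.5% of them no DoHH-2 count lay within 1000 nt.

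The share with a run of A was larger among high counts. It was 3.76% at 3 counts, 4.44% at 4, 6.13% at 5 to 9 and 16.8% at 10 to 19, and 3 of the 7 positions with 20 or more counts had one. Among the 30 highest positions 11 did. With a counterpart it went from 2.53% at 3 counts to 15.2% at 20 or more. Runs of 10 or more T followed 17 positions (0.547%), runs of C 3 and runs of G 0, which allows a share of up to 0.124% by its Wilson interval.

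T was the most frequent base in both groups. It stood at 44.2% of the positions and at 48.9% of the nucleotides just after them, against 38.9% and 42.3% with a counterpart. In introns it was 48.2% and 52.1%, in coding exons 40.5% and 43.1%. G just after the position was scarce in both, at 4.35% and 6.00%.

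Words were sought in windows of 61 nt centred on the position and read on its strand. AAAAAA occurred in 8.98% (8.03 to 10.04), against 6.77% (6.33 to 7.23) with a counterpart. The intervals cover counting error only. TTTTTT occurred in 7.18%, against 5.93%. GAGAGA occurred in 1.29% against 1.53% and GTGTGT in 1.71% against 1.25%. CCCCCC stood at 2.06% against 2.36%, GGGGGG at 0.773% against 0.746% and AATAAA, the polyadenylation hexamer, at 2.90% against 3.48%. GCGGTT, a word derived from the end of the reverse transcription primers, occurred in 0.547% against 1.003%. For each word other than AAAAAA the intervals of both groups overlapped. No word was tested, and the groups were not matched for region.

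By gene class, protein-coding genes held 2377 of the positions (76.5%), lncRNAs 139 (4.48%), pseudogenes 47 (1.51%), immunoglobulin or T-cell receptor genes 7 and other RNA genes 5. The share of repeated positions without a counterpart was 19.2% in protein-coding genes, 40.5% (139 of 343) in lncRNAs, 39.5% (47 of 119) in pseudogenes and 27.1% where no gene was assigned, around the 20.5% over all. In other RNA genes it was 5 of 222 (2.25%). By chromosome it ranged from 6.86% on chromosome 6 to 34.4% on chromosome 18, and 0 of 95 repeated mitochondrial positions lacked a counterpart.

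Small RNA genes, taken from RefSeq by position without regard to strand, mostly had DoHH-2 counts nearby. None of 159 repeated positions in snRNAs, 53 in rRNAs, 26 in snoRNAs and 9 in Y RNAs lacked a counterpart. In tRNAs, 15 of 356 positions (4.21%) did, in 10 genes. TRT-CGT1-1 held the highest, with 37, 11, 7 and 5 counts at 4 positions, and TRC-GCA17-1 followed with 17 at 1 position. The annotation used for regions does not list these tRNAs, so 5 of the 15 were counted as intronic and 10 as outside genes.

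VTRNA2-1, a short transcript of RNA polymerase III related to the vault RNAs, differed from those classes. Its 4 repeated positions held 3, 3, 4 and 12 counts, and all 4 lacked a counterpart. They lay close together, from 136080536 to 136080552, and only the position of 12 counts had a deposited FDR (described below) under 0.05. The gene had 30 counts in GM01953 and 0 in DoHH-2, where the nearest position lay 199456 nt from the highest. The second vault RNA gene with repeated positions had none without a counterpart, so the share over the vault RNA class was 4 of 9. One position of 3 counts in MIR155, the gene of a microRNA of activated B cells, had its nearest DoHH-2 position 58 nt away.

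The positions were spread over 2148 assigned genes. Of these, 1769 held 1 position, 270 held 2 and 109 held 3 or more. In 63 genes with 3 or more, every repeated position of the gene lacked a counterpart. DoHH-2 had 0 counts in 219 of the genes, 1 to 20 in 413 and over 20 in 1516.

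PIEZO2, which encodes a mechanosensitive cation channel, held the most, at 10 positions. They lay along the gene (ENSG00000154864, chromosome 18 from 10666483 to 11149569), 5 in coding exons, 1 in a non-coding exon and 4 in introns, with counts of 3 to 10. All 10 of its repeated positions lacked a counterpart. The gene had 94 counts in GM01953 and 1 in DoHH-2, a ratio of 1143 per total count (95% interval 200.2 to 45623, counting error only). The genes named for their number of positions or summed count were picked by these same counts. This ratio and those below therefore describe selected genes, and their intervals do not cover the selection.

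MS4A1, which encodes the B-cell surface protein CD20, held 9 of its 13 repeated positions in this group. They lay in exons only, at the 5′ UTR (3 counts), the CDS (8, 4 and 5) and the 3′ UTR (6, 3, 6, 3 and 3). The gene (chromosome 11 from 60455846 to 60470752) had 152 counts in GM01953 and 13 in DoHH-2, a ratio of 142 per total count (80.7 to 273). The nearest DoHH-2 positions lay 51 to 1347 nt away, so part of the gene was covered in both lines.

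CD44, the hyaluronan receptor, and CCND2, which encodes the cell cycle regulator cyclin D2, each held 7. In CD44 (chromosome 11 from 35138882 to 35232402) the counts were 3 in the CDS, 8 and 4 in introns and 7, 3, 3 and 3 in the 3′ UTR. In CCND2 (chromosome 12 from 4269771 to 4305353) they were 6, 3, 3, 3 and 4 within the 5′ UTR and 3 and 4 in the 3′ UTR. Neither gene had a DoHH-2 count. With 54 and 65 counts in GM01953, this was at least 219-fold and at least 263-fold higher per total count, with the DoHH-2 floor set at 3 counts of its total.

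RABGAP1L, DHRSX and RREB1 held 6 each and looked different. RABGAP1L, a GTPase-activating protein of the Rab pathway, had all 6 in introns, with 3, 5, 4, 3, 6 and 13 counts, each isolated by 50 nt. Its total was 91 counts in GM01953 and 820 in DoHH-2, a ratio of 1.35 per total count (1.07 to 1.68). For RREB1, a zinc finger transcription factor, the ratio was 1.70 (1.18 to 2.39), and for DHRSX, a dehydrogenase, 4.17 (3.06 to 5.62). In all 3 genes every one of the 6 was isolated.

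ENTPD1, which encodes the ectonucleotidase CD39, also held 6, with 3 or 4 counts each, and had 43 counts in GM01953 and 1 in DoHH-2 (ratio 523, 89.0 to 21127). PAG1, MCF2L and LINC00158 entered the genes of highest summed count by a single position each. PAG1, an adaptor that binds the kinase Csk, held the highest position of all, with 53 counts in an intron (chromosome 8, position 80986838, - strand), 299 nt from the nearest DoHH-2 position, while the gene had 80 counts in GM01953 and 106 in DoHH-2. MCF2L, a guanine nucleotide exchange factor, had all 36 of its GM01953 counts at 1 intron position followed by 14 A. The lncRNA LINC00158 had 30 of its 36 counts at 1 intron position.

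Another 4 high positions, whose sequences are not shown, had no assigned gene. A position of 17 counts antisense to a gene (chromosome 19, position 57513065, - strand) had another GM01953 position 1 nt away and its nearest DoHH-2 position 2748 nt away. The other 3 were isolated by 50 nt in single-copy sequence. They were 17 counts antisense to a gene on chromosome 2 (position 20754492, + strand), followed by a run of 21 A, and 17 counts antisense to a gene on chromosome 3 (position 193593387, - strand), 305 nt from the nearest DoHH-2 position. The last held 16 counts outside genes on chromosome 11 (position 44716229, - strand) and was followed by a run of 16 A.

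Histone genes, recognised by name and grouped after their values were seen, held few of the positions. Of 1541 repeated positions in 67 histone genes, 32 (2.08%) lacked a counterpart, in 15 genes, against the 20.5% over all. They were 21 of 60 (35.0%) on chromosome 1 and 11 of 1465 (0.751%) on chromosome 6. H3C7 held 6 with counts of 3 to 8 in the CDS (68 counts in GM01953 and 16 in DoHH-2). Among these, positions of 3 counts included deposited FDRs of 0.524 and 0.835. H2BC18 held 6 with 3 or 4 counts within the 5′ UTR (34 and 10). HIST2H2AA4 and HIST2H2AA3 held 3 each and had 38 and 23 counts in GM01953 and 0 in DoHH-2. All 6 of those positions lay in sequence with more than 1 copy, so that the assignment between these genes is uncertain. Of the 32 histone positions, 10 lay in such sequence, the rest of them in H2BC26, H3C14, H3C15 and H4C15. All of these genes are on chromosome 1, so its share of 35.0% includes positions of uncertain assignment.

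CD40, a receptor of the TNF receptor family that stimulates B cells, had the highest summed count, 63 at 3 positions. The counts were 4 in the 5′ UTR, 9 in an intron and 50 at 1 nucleotide of a non-coding exon. The gene (chromosome 20 from 46118271 to 46129863) had 73 counts in GM01953 and 0 in DoHH-2, at least 296-fold higher per total count. The nucleotide with 50 of the 73 counts had no other GM01953 count within 1000 nt.

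Among targets of NF-kB and genes of activated B cells, the share without a counterpart was above that over all genes. Of 66 repeated positions in 22 genes of the list, 41 (62.1%) had no DoHH-2 position within 50 nt, against the 20.5% over all, and they lay in 17 genes. They were 13 in the CDS, 11 in the 5′ UTR, 8 in the 3′ UTR, 6 in introns and 3 in non-coding exons, 15 of the 41 were isolated by 50 nt, and for 37 no DoHH-2 count lay within 1000 nt. In 12 of the 17 genes every repeated position lacked a counterpart, and 10 of the 17 had 0 DoHH-2 counts. In genes with 0 DoHH-2 counts the rule itself nearly fixes the outcome, as 264 of 265 of their repeated positions over all genes lacked a counterpart. The list was also chosen with earlier results of these data known, so its share is a description and no test.

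The 10 were CD40, CD44, FSCN1, FCER2, CCR7, TNFAIP2, SLAMF1, EBI3, BCL2A1 and LTA. FSCN1, an actin-bundling protein, held 4 positions (3, 7, 3 and 4 counts) and had 43 counts in GM01953. FCER2, the IgE receptor CD23, held 3 (5, 3 and 6) and had 42 counts. The chemokine receptor CCR7 held 2 in its CDS (4 and 12) and had 28 counts. TNFAIP2 and the lymphocyte receptor SLAMF1 held 3 each and had 19 counts each. The cytokine subunit EBI3, the anti-apoptotic BCL2A1 and lymphotoxin alpha (LTA) held 1 each, with 6, 3 and 4 counts.

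The other 7 had DoHH-2 counts. The chemokine CCL22 held 3 positions and had 47 counts in GM01953 against 4 in DoHH-2, TNFRSF8 (CD30) held 3 with 27 against 9, and the signalling adaptor TRAF1 held 2 with 25 against 14. BATF (19 against 6), BIRC3 (38 against 59), CD83 (26 against 43) and NFKB1 (19 against 224) held 1 or 2. The 5 genes of the list with repeated positions but none of these were IRF4, NFKB2, TNFAIP3, CD48 and ICAM1, with 68 to 685 DoHH-2 counts.

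**Figure D2:**
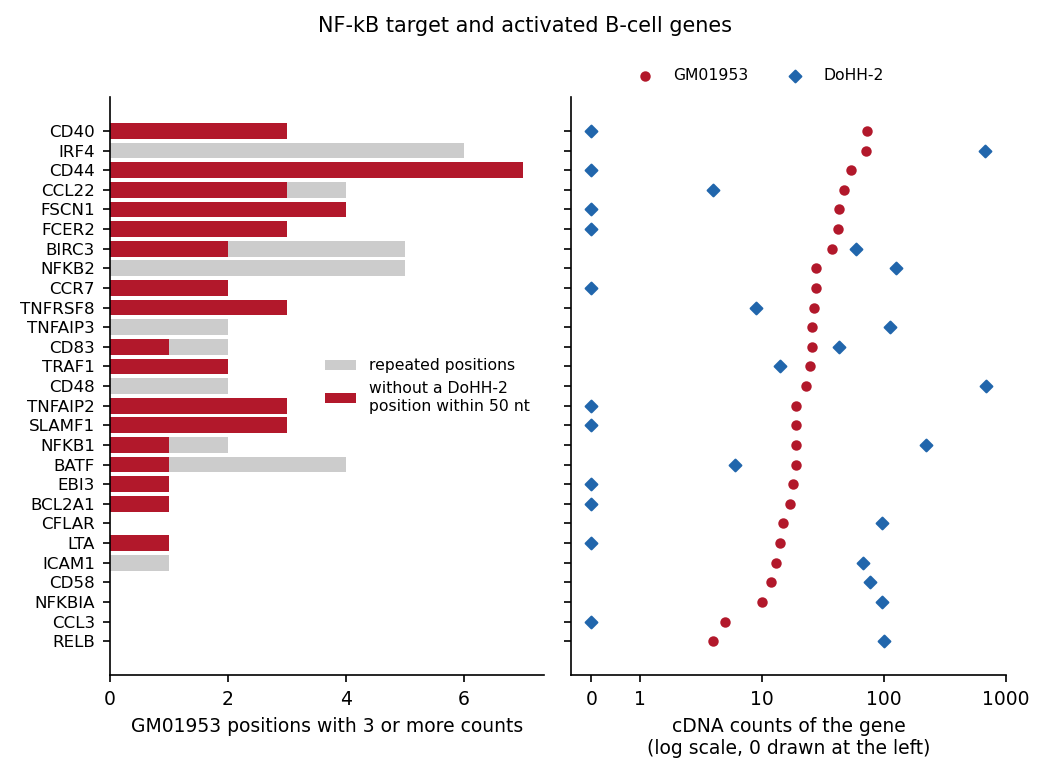
Genes of the NF-kB target and activated B-cell list, which was chosen with earlier results of these data known, ordered by GM01953 counts. Left, repeated GM01953 positions (grey) and those without a DoHH-2 position within 50 nt (red), 41 of 66 in all; right, cDNA counts of the gene in GM01953 (red circles) and DoHH-2 (blue diamonds) on a log scale with 0 at the left.

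Of 95 repeated positions in B-cell identity genes, 22 (23.2%) lacked a counterpart, in 9 genes, against the 20.5% over all. Besides the 9 of MS4A1, the tetraspanin CD37 held 3 (4, 3 and 3 counts; 19 counts in GM01953 and 0 in DoHH-2) and the inhibitory receptor CD22 held 1 of 10 counts in an intron (27 and 0). The transcription factor PAX5 held 3 of 8, CIITA 2 of 2, and EBF1, POU2AF1 and SPIB 1 each. CD74, the invariant chain of MHC class II, held 1 of 46, at 10 counts in an intron.

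In the germinal centre list 4 of 26 (15.4%) lacked a counterpart, with 2 in introns of BCL2 (4 and 7 counts), which had 117 counts in GM01953 and 3289 in DoHH-2, and 1 each in introns of GCSAM and STMN1. In the plasma cell list 0 of 17 did. LCK and NKG7, markers of T and NK cells, each had 1 repeated position of 3 counts, and both lacked a counterpart.

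Further genes with 0 DoHH-2 counts, chosen for naming after their values were seen, had no place in the lists. PPDPF held 4 positions of 3 to 6 counts and HIC1, a transcriptional repressor, 4 of 3 or 4 counts, with 35 and 34 counts in GM01953. Of the PPDPF positions, only that of 6 counts had a deposited FDR under 0.05. RAB17, a small GTPase, held 1 of 10 counts (31 counts in all), SAMSN1, an adaptor of lymphocytes, 2 of 11 and 6 (28), and the flippase ATP11A 1 of 11 (27). Among the 2148 genes that held at least 1 of the positions, 27 had 20 or more counts in GM01953 and 0 in DoHH-2.

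The deposited FDR, which compares the counts around a position with permutations within its gene, was below 0.05 for 2569 of the 3106 (82.7%), against 83.4% of all repeated positions. All 518 without an assigned gene carry an FDR of 1, so 5 of the 10 highest positions did not pass. Among positions with an assigned gene, 99.3% were below 0.05, against 94.6% of those with a counterpart.

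With DoHH-2 thinned at random to the GM01953 total, 7095 repeated positions (46.8%) had no DoHH-2 position within 50 nt, and 27.3% of those lay in introns. Both values thus hold only for the deposited depth of DoHH-2.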

How the data were processed

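The authors deduplicated the reads with BBMap, split them by barcode with Je and trimmed them. Mapping was to GRCh38 with HISAT2. iCount then gave cDNA counts per cross-link position over the pooled replicates. The deposited score is a whole-number count that was not normalized. The FDR deposited by the authors is an adjusted p-value (a q-value) from iCount and was used in 1 alternative. Versions and the annotation release are not given in the sources used here.

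Positions listed for several genes were counted once. Positions were read as counted from 0 and are printed from 1. Regions came from GENCODE release 44 and small RNAs from RefSeq, the latter matched by position without strand. Copy number came from an exact search of 31-nt words in the primary assembly. Shares have 95% Wilson intervals. Steps were tested on simulated data.

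No test was made, because the counts chose the positions and each cell line has 1 table. Named are the 10 highest positions (also among isolated single-copy ones), the 10 genes with the most positions or the highest summed count, and list genes. The members and lists were chosen with earlier results of these data known. Window, count minimum, FDR, strand, clustering, depth, transcripts, isolation and word were varied. Repeat masking was not used here. Python 3.11.15, pandas 2.3.3, scipy 1.17.1 and numba 0.67.0 were used.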

Additional observations from a re-analysis of the deposited data

How the results depend on the processing

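The number of positions stayed within 1.5 times of 3106 under 6 of 9 alternatives and was 6837 with 2 or more counts, 1037 with 5 or more and 7095 with DoHH-2 thinned to the GM01953 total. The intron share (45.7%) left its interval with a DoHH-2 window of 25 nt (40.9%) or 100 nt (48.0%), with 2 or more counts (42.6%), 5 or more (50.2%), an FDR below 0.05 (53.8%) and the thinned DoHH-2 table (27.3%). The isolated share (81.5%) became 83.2% with 2 or more counts, 79.7% with 5 or more, 83.1% over clusters, 73.2% with the thinned table, and 83.0% and 78.8% at isolation distances of 25 and 100 nt. The single-copy share (95.8%) became 96.8% with 5 or more counts, 97.0% with an FDR below 0.05, 94.8% with the thinned table, 85.8% with 21-nt words and 93.8% with words centred on the position. Leaving out positions before runs of A, an alternative chosen after seeing the data, gave 96.5%. The cause of these shifts was not tested. With the thinned table the repeated positions left outside had 2.89% in introns and 19.01% isolated, both below the shares of those taken. The thinning was drawn once and the same rule split the positions again. This comparison is therefore no independent check of the differences. No paired analysis was possible because the deposited tables pool the replicates, and no replicate could be left out for the same reason. The share of repeat-masked bases was not computed, as the reference used carries no masking. The depth of GM01953 limits positions with 3 counts, and which GM01953 positions have a counterpart depends on the depth of DoHH-2.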
